A study of Mus musculus with 4 samples.

Results

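The genes described here are 8 regulators of the fetal state that are also known from cancer: Igf2bp1, Igf2bp2, Igf2bp3, Lin28a, Lin28b, Trim71, Hmga1 and Hmga2. They were chosen by name out of 21951 protein-coding genes of the GENCODE vM21 annotation, and each was measured as the counts in called peaks over its body and the 2 kb upstream of it. The data were single-nucleus ATAC-Seq (scATAC-Seq) libraries, in which a transposase cuts open chromatin and a barcode names the nucleus. Hepatocytes were freed by collagenase perfusion from the livers of male C57BL/6J mice, labelled as 10 to 12 weeks of age and kept on a normal diet. The 4 libraries came from undamaged liver without surgery (PHx 0 h) and from liver taken 48, 72 or 96 h after PHx, partial hepatectomy, in which lobes of the liver are cut away. A time point is 1 library, those of 0 and 48 h from 1 hepatocyte preparation each (for 72 and 96 h the number was not given), so time and library cannot be told apart and no difference between time points was tested.

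These proteins act together in a circuit of early development. LIN28A and LIN28B bind the precursors of let-7, a family of microRNAs that marks differentiated cells, and block their maturation. The IGF2BP proteins bind and stabilise messenger RNAs, among them many that carry m6A, a methyl mark on adenosine. TRIM71 is an RNA-binding ubiquitin ligase whose own messenger is a classic let-7 target. HMGA1 and HMGA2 bend DNA at AT-rich sites and loosen chromatin, and Hmga2 is another let-7 target. Most of these genes are active in fetal liver and silent or low in the adult organ.

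The sequences at 3 start sites are shown first, since their promoter peaks took different courses. That of Hmga2 was present throughout and longer at 48 and 72 h. That of Trim71 was called at 48 and 72 h alone, and that of Lin28b was of nearly steady length. Capitals mark CG dinucleotides, the pairs that cluster in CpG islands. The first lies upstream of Hmga2 at chr10:120476470-120476719 and the second upstream of Trim71 at chr9:114564370-114564619, both on the minus strand, from the RefSeq promoter table for GRCm38.p6. The last is the first 300 bases upstream of the outer Lin28b start site, at chr10:45486396-45486695 on the minus strand, read from GRCm38.p6, which shares its coordinates with mm10.
Hmga2: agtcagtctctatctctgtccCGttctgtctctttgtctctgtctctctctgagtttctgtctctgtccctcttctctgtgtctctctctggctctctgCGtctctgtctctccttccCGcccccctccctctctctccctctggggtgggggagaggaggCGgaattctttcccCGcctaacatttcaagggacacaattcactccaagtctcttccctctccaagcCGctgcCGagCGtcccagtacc
Trim71: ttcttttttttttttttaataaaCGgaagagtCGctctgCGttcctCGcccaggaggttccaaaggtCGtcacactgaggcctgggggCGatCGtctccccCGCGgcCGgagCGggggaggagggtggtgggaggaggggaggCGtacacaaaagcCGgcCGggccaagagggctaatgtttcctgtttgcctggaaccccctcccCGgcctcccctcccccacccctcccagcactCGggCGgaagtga
Lin28b: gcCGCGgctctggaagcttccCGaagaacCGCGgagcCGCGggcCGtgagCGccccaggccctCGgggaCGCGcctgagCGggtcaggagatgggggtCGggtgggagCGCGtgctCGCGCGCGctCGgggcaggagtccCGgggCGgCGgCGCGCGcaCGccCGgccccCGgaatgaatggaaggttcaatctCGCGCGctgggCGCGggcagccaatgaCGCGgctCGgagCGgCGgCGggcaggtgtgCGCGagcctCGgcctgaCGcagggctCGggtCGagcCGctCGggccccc

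The Hmga2 stretch held 8 CG dinucleotides in 250 bases, close to the median of 6.0 over 32851 RefSeq promoters cut to the same length. The Trim71 stretch held 17, more than 76.5% of promoters. The Lin28b stretch held 49 in 300 bases, with a GC content of 77.7%. All bases of the Hmga2 and Lin28b stretches lay in a called peak in each of the 4 libraries, whereas none of the Trim71 stretch did in any library. Searched on both strands, the GC box GGGCGG was present in the Hmga2 and Trim71 stretches, on 1 strand of each, as in 32.7% of all promoters. The TATA box TATAAA was in neither, against 12.4% of all promoters.

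Facts of the libraries bear on every value that follows. The counts in peaks of barcodes with at least 1000 counts, called nuclei here, were 136582768, 62000846, 24724883 and 14935507 at 0, 48, 72 and 96 h, in 3977, 3892, 4256 and 3224 nuclei. Peaks were called in each library on its own and covered 153.58, 179.04, 141.2 and 60.9 Mb, so a gene without a called peak has no measured level rather than a level of 0. Between 681 and 882 barcodes occurred in both libraries of a pair, and nuclei with such a barcode held 49.3% of the counts at 0 h and 16.6%, 3.05% and 6.62% at 48, 72 and 96 h. Levels of each gene without these nuclei are given beside its results, while promoter levels and shares of nuclei are given with them only. All 10 hepatocyte markers had peaks in every library, with a summed level of 4432 to 6477 counts per 1000000 counts in peaks (CPM).

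Trim71, Hmga2 and Lin28b had more of the library's counts at every time after PHx than in undamaged liver, and Hmga1 had fewer. At 48 h, 1 of the 8 genes was at least 2-fold higher (Trim71), where 8.22% of all 16848 genes with a mean of at least 1 CPM were, and 1 was at least 2-fold lower (Hmga1, background 1.89%). At 72 h, 3 were higher (Trim71, Hmga2 and Lin28b, background 13.7%) and 0 lower (background 5.95%). At 96 h, Trim71 and Lin28b were higher (background 6.12%), and Igf2bp1 and Lin28a, which were nearly or wholly without peaks, were lower (background 11.5%). Ratios are on the scale of log2(CPM + 0.5). All 8 genes passed the filter. The median log2 ratio over them was 0.39, 0.89 and -0.11 at 48, 72 and 96 h, beside -0.01, 0.03 and 0.06 over all genes. Hmga1 was no longer called at 48 h when its peak was weighted by the share inside the gene window. Binarised counts take any count of a nucleus in a peak as 1. With them Hmga1 at 48 h (-0.73), Lin28b at 72 and 96 h (0.64 and 0.66) and Trim71 at 96 h (0.84) were not called. Per kb of peak no gene of the 8 was called at 48 or 72 h. Few of all genes were on that scale, with 0.108% higher and 1.21% lower at 48 h, and 1.42% and 0.41% at 72 h.

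**Figure D1:**
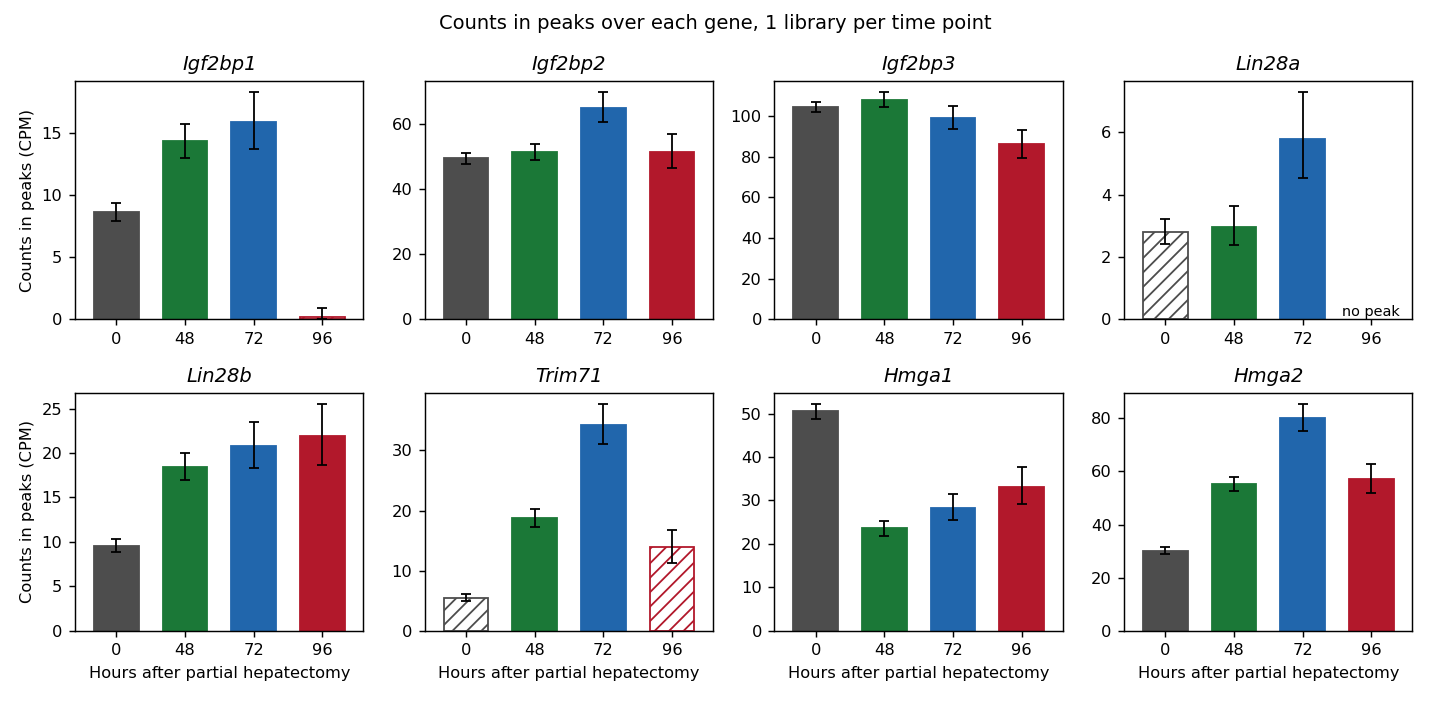
Counts in peaks over each gene in CPM (vertical axis, a separate scale from 0 for each gene) in the libraries of 0, 48, 72 and 96 h. Filled bars have a called promoter peak and hatched bars have none, error bars are exact 95% Poisson intervals that cover counting error only, and Trim71 stands at 5.52, 18.7, 34.3 and 13.9 CPM.

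The 8 genes differed widely in openness per length. In undamaged liver the level per kb of gene window was highest for Hmga1, at 5.50 CPM per kb, above that of 91.0% of protein-coding genes. This counts all of a peak that only partly lies in the window, and with the peak weighted by its share inside, the level was 3.27 CPM per kb. Igf2bp3 followed at 0.795 CPM per kb, Igf2bp2 at 0.465 and Hmga2 at 0.256. Igf2bp1 at 0.169 and Lin28a at 0.159, or 0.0873 when weighted, came next, and Trim71 at 0.0932 and Lin28b at 0.0855 were last. There is no spread over samples by which the neighbours in this order could be told apart. At 72 h Trim71 was at 0.579 and Lin28b at 0.186 CPM per kb.

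Lin28b encodes the LIN28 paralogue that is best known from fetal liver and liver tumours, and lies at chr10:45376620-45486395 on the minus strand of mm10. At 0, 48, 72 and 96 h its peaks held 9.55 CPM (95% interval 8.84 to 10.3), 18.5 (17.0 to 20.03), 20.8 (18.3 to 23.5) and 21.9 (18.7 to 25.5). The 3 libraries after PHx thus lay close together, and their intervals did not reach that of 0 h. The log2 ratios to 0 h were 0.91, 1.08 and 1.16, and without nuclei whose barcode occurred in another library 0.96, 1.15 and 1.21. Per kb of peak they were 0.13, 0.80 and 1.75, where the medians over all genes were -0.20, 0.17 and 1.26. The covered length of the gene was 2448, 4223, 2970 and 1621 bp at 0, 48, 72 and 96 h. Most of this signal came from a single promoter peak that covers the outer start site and overlaps the first exon. It was 1422, 1591, 1478 and 1311 bp long, and held 6.85, 10.0, 14.4 and 18.6 CPM at 0, 48, 72 and 96 h. Here the length of the called peak barely changed while the counts did.

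Lin28b is therefore the gene of the 8 whose change can be read at like peak length in every comparison. Regions with 1 peak in both libraries and lengths within 20% numbered 50962, 37195 and 4472 for 48, 72 and 96 h against 0 h. The median log2 ratio over them was -0.01, 0.29 and 1.23. The Lin28b promoter had 0.52, 1.02 and 1.38, above 96.8%, 97.5% and 65% of these regions. At 96 h the ratio of the promoter thus lay near the ratio that regions of unchanged length had in general. A second region, over an exon and within 1000 bp of the inner start site that RefSeq lists, had a peak at 48 and 72 h, with 2.18 and 1.70 CPM, and none at 0 or 96 h. An intronic region near the 3′ end of the gene had a peak in all 4 libraries, at 0.871, 1.89, 1.86 and 3.28 CPM.

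Lin28a encodes the other LIN28 protein, the one first used to reprogram cells, at chr4:134003330-134018841 on the minus strand. It was at the edge of measurement. For 0, 48 and 72 h its peaks held 2.79 CPM (2.41 to 3.22), 2.97 (2.39 to 3.64) and 5.78 (4.52 to 7.29), and no peak was called at 96 h. At 0 h this was a single peak of 513 bp upstream, of which 281 bp lay in the window. A peak 8734 bp into the gene, near an inner start site, was called at 48 and 72 h, with 56 and 40 counts. A peak at the outer promoter was called at 72 h alone, with 66 counts over 1139 bp. The antisense gene Gm13061 starts within the same region, and scATAC-Seq cannot tell their promoters apart. No peak lay in the gene body at 0 h, so the body alone gives no ratio. With the upstream peak the log2 ratios were 0.08 and 0.93 at 48 and 72 h, and 0.02 and 0.95 without nuclei whose barcode occurred elsewhere. Per kb of peak they turned to -0.59 and -0.97.

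Because LIN28 acts on let-7, the let-7 loci were read in the same way. The mature forms of the 6 loci that passed the filter are shown, with bases 2 to 8, the seed that pairs with target messengers, in capitals. All share 1 seed.
let-7a: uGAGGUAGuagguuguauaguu
let-7b: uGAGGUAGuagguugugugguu
let-7c: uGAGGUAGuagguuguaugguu
let-7e: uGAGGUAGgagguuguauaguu
let-7f: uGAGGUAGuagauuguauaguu
let-7i: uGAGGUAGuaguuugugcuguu

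Of 12 let-7 loci, 6 had a promoter peak at 0 h, 8 at 48 h, 6 at 72 h and 3 at 96 h. Of the 6 that passed the filter, all had a peak at 48 h, with a median log2 ratio of 0.16, 4 had one at 72 h and 3 at 96 h. None with a peak was 2-fold away from 0 h at 48 or 72 h. The loci named next were chosen after their values were seen. Mirlet7b and Mirlet7c-2 share the same peaks, which held 96.4, 97.6, 106.6 and 34.4 CPM over 12591, 13250, 12394 and 2141 bp. Mirlet7i was the exception at 96 h, with 43.0, 48.0, 64.1 and 80.3 CPM. Mirlet7e had 20.7, 23.4 and 25.5 CPM and no peak at 96 h. Mirlet7a-1 and Mirlet7f-1 also share their peaks, with 4.71 and 6.56 CPM at 0 and 48 h and no peak at 72 or 96 h.

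Trim71, at chr9:114507133-114564369 on the minus strand, had the largest ratios of the 8 genes at 48, 72 and 96 h. Its level was 5.52 CPM (4.98 to 6.11), 18.7 (17.2 to 20.3), 34.3 (31.1 to 37.7) and 13.9 (11.3 to 16.8) at 0, 48, 72 and 96 h. No interval overlapped another, and the level was highest at 72 h. The log2 ratios to 0 h were 1.67, 2.53 and 1.25, above 96.5%, 97.4% and 96.8% of all genes tested. Without nuclei whose barcode occurred elsewhere they were 1.66, 2.53 and 1.2. The covered length moved with the counts, from 1697 bp at 0 h to 5223, 7050 and 1252 bp, and per kb of peak the ratios were 0.05, 0.48 and 1.69 where the medians over all genes were -0.20, 0.17 and 1.26. Within called peaks Trim71 was thus little denser at 48 h than before surgery, and had more peaks.

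Those peaks lay in 12 regions, 10 of them in introns. Only 3 regions had a peak in all 4 libraries, all intronic, and 9 had one at 48 or 72 h and at neither 0 nor 96 h. The strongest of the shared regions, 8978 bp into the gene, held 3.40, 7.98, 10.9 and 7.90 CPM. The others held 0.886, 1.44, 3.80 and 2.14 CPM, and 1.24, 3.02, 6.27 and 3.82 CPM. All 3 were thus lowest at 0 h and highest at 72 h. The promoter region, which covers coding sequence of the first exon, had a peak of 1915 bp with 4.403 CPM at 48 h and one of 1429 bp with 4.004 CPM at 72 h. These peaks began 135 and 254 bp downstream of the annotated start and did not cover it, and no promoter peak was called at 0 or 96 h.

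Of the IGF2BP family, Igf2bp2 and Igf2bp3 stayed within 2-fold of 0 h at every time, and Igf2bp1 did not. Igf2bp3, an oncofetal RNA-binding protein that is a marker of liver cancer, lies at chr6:49085223-49214957 on the minus strand. It had 104.8 CPM (102.4 to 107.3), 108.1 (104.5 to 111.8), 99.4 (93.9 to 105.1) and 86.2 (79.7 to 93.2) at 0, 48, 72 and 96 h. The first 3 intervals overlapped and that of 96 h lay below them, with log2 ratios of 0.04, -0.08 and -0.28, or 0.09, -0.06 and -0.26 without nuclei whose barcode occurred elsewhere. The gene window held 20 regions, 18 of them intronic, and 8 had a peak in every library. At 0 h the most counts lay not at the start site but in an intronic region 3587 bp downstream, with 20.1, 13.9, 16.3 and 16.8 CPM. At near-equal peak length this region stood at -0.51 and -0.29 at 48 and 72 h, and another intronic one 48079 bp downstream stood at -0.51 at both times. These were the lowest of the gene. Most of its regions of near-equal length went the other way, with 5 of 8 above 0 at 48 h, up to 0.30. At 72 h 5 of 7 did, up to 0.61.

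The outer promoter peak of Igf2bp3 was 2388, 3125, 2106 and 260 bp long, with 6.96, 9.48, 8.53 and 2.41 CPM. A second promoter region inside the gene, over an exon and an inner start site 103628 bp downstream, held 3.23, 10.2, 7.89 and 10.2 CPM, with 886 bp of peaks at 0 h and 2002 bp at 48 h. Over the 3 regions within 1000 bp of its start sites, taken as the same regions in each library, Igf2bp3 held 11.2, 20.2, 16.4 and 12.7 CPM. The level there was thus highest at 48 h, while that of the whole gene hardly differed between 0 and 48 h.

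Igf2bp2, the family member that is kept in adult tissues, lies at chr16:22059009-22163299 on the minus strand. It had 49.4 CPM (47.8 to 51.1), 51.2 (48.7 to 53.8), 64.95 (60.5 to 69.6) and 51.4 (46.3 to 56.8) at 0, 48, 72 and 96 h. The library of 72 h was highest and its interval stood clear of the others, which overlapped. The log2 ratios were 0.05, 0.39 and 0.06, and without nuclei whose barcode occurred elsewhere they were -0.08, 0.28 and -0.05. Its outer promoter peak held 14.2, 15.7, 25.9 and 22.1 CPM, and the peaks of 0 and 72 h, at 2545 and 2550 bp, were of near-equal length, with a log2 ratio of 0.85. That ratio lay above 93.2% of regions of near-equal length.

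Igf2bp1, which is largely restricted to fetal tissue and tumours, lies at chr11:95957163-96005940 on the minus strand. It had 8.58 CPM (7.90 to 9.30), 14.3 (13.0 to 15.7), 15.9 (13.7 to 18.2) and 0.201 (0.0144 to 0.859) at 0, 48, 72 and 96 h. The libraries of 48 and 72 h overlapped and lay above that of 0 h. The log2 ratios were 0.70, 0.85 and -3.70, and without nuclei whose barcode occurred elsewhere 0.70, 0.82 and -3.70. The value at 96 h rests on 3 counts in a single intronic peak of 69 bp, and per kb of peak its sign is reversed, at 1.76. The promoter peak covered the outer start site, overlapped coding sequence, and was 1508, 1679 and 1507 bp long at 0, 48 and 72 h, with 3.42, 5.16 and 6.55 CPM. At this near-equal length the log2 ratios were 0.53 and 0.85, above 97.1% and 93.2% of regions. The antisense gene Gm29202 starts within the same peak, and the peak cannot be given to either promoter alone.

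In CPM the HMGA genes went opposite ways, which did not hold at 96 h once the Hmga1 peak was weighted by its share in the window, nor per kb of peak. Hmga2, the form that is switched off after birth, lies at chr10:120361275-120476469 on the minus strand. It had 30.03 CPM (28.7 to 31.4), 55.1 (52.5 to 57.8), 80.2 (75.3 to 85.4) and 57.2 (51.9 to 62.9) at 0, 48, 72 and 96 h. The level was lowest before surgery and highest at 72 h, and the intervals of 48 and 96 h overlapped. The log2 ratios were 0.86, 1.40 and 0.92, and without nuclei whose barcode occurred elsewhere 0.93, 1.44 and 0.95. Its promoter peak was 1113 bp long at 0 h with 2.32 CPM, and 4301, 4290 and 1523 bp long with 16.7, 27.0 and 14.1 CPM later. It made up 7.73% of the counts of the gene at 0 h and 30.3%, 33.7% and 24.6% at 48, 72 and 96 h. On the log2 scale the promoter peaks stood 2.61, 3.29 and 2.37 above 0 h.

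The other large peaks of Hmga2 lie in introns 53495, 57080 and 83898 bp downstream of its start. They held 6.49, 11.9 and 8.60 CPM at 0 h, 10.5, 14.5 and 12.1 at 48 h, 15.5, 16.6 and 16.02 at 72 h, and 12.7, 15.8 and 14.7 at 96 h. Each was lowest at 0 h. The last of them overlaps the antisense gene 9230105E05Rik. At 96 h it was of near-equal length to 0 h, with a log2 ratio of 0.74 that lay above only 15.97% of such regions.

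Hmga1, the HMGA form of proliferating adult cells, lies at chr17:27556497-27563674 on the plus strand. It had 50.5 CPM (48.8 to 52.2), 23.6 (21.9 to 25.4), 28.3 (25.4 to 31.4) and 33.2 (29.2 to 37.6) at 0, 48, 72 and 96 h. It was highest in undamaged liver and no interval reached that of 0 h, with log2 ratios of -1.08, -0.82 and -0.60, which 1.66%, 8.77% and 19.4% of all genes lay below. Without nuclei whose barcode occurred elsewhere they were -1.05, -0.81 and -0.59. All of its counts lay in 1 peak over its promoter. At 0 h that peak was 6885 bp long and ran upstream over Gm49773 and Gm49774, with 4088 bp inside the gene window. At 48, 72 and 96 h it was 3319, 3251 and 1983 bp long. With counts weighted by the share of the peak inside the window the log2 ratios were -0.34, -0.08 and 0.15. Per kb of peak Hmga1 held 7.33, 7.11, 8.71 and 16.7 CPM per kb, so that 0 and 48 h hardly differed in density.

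**Figure D2:**
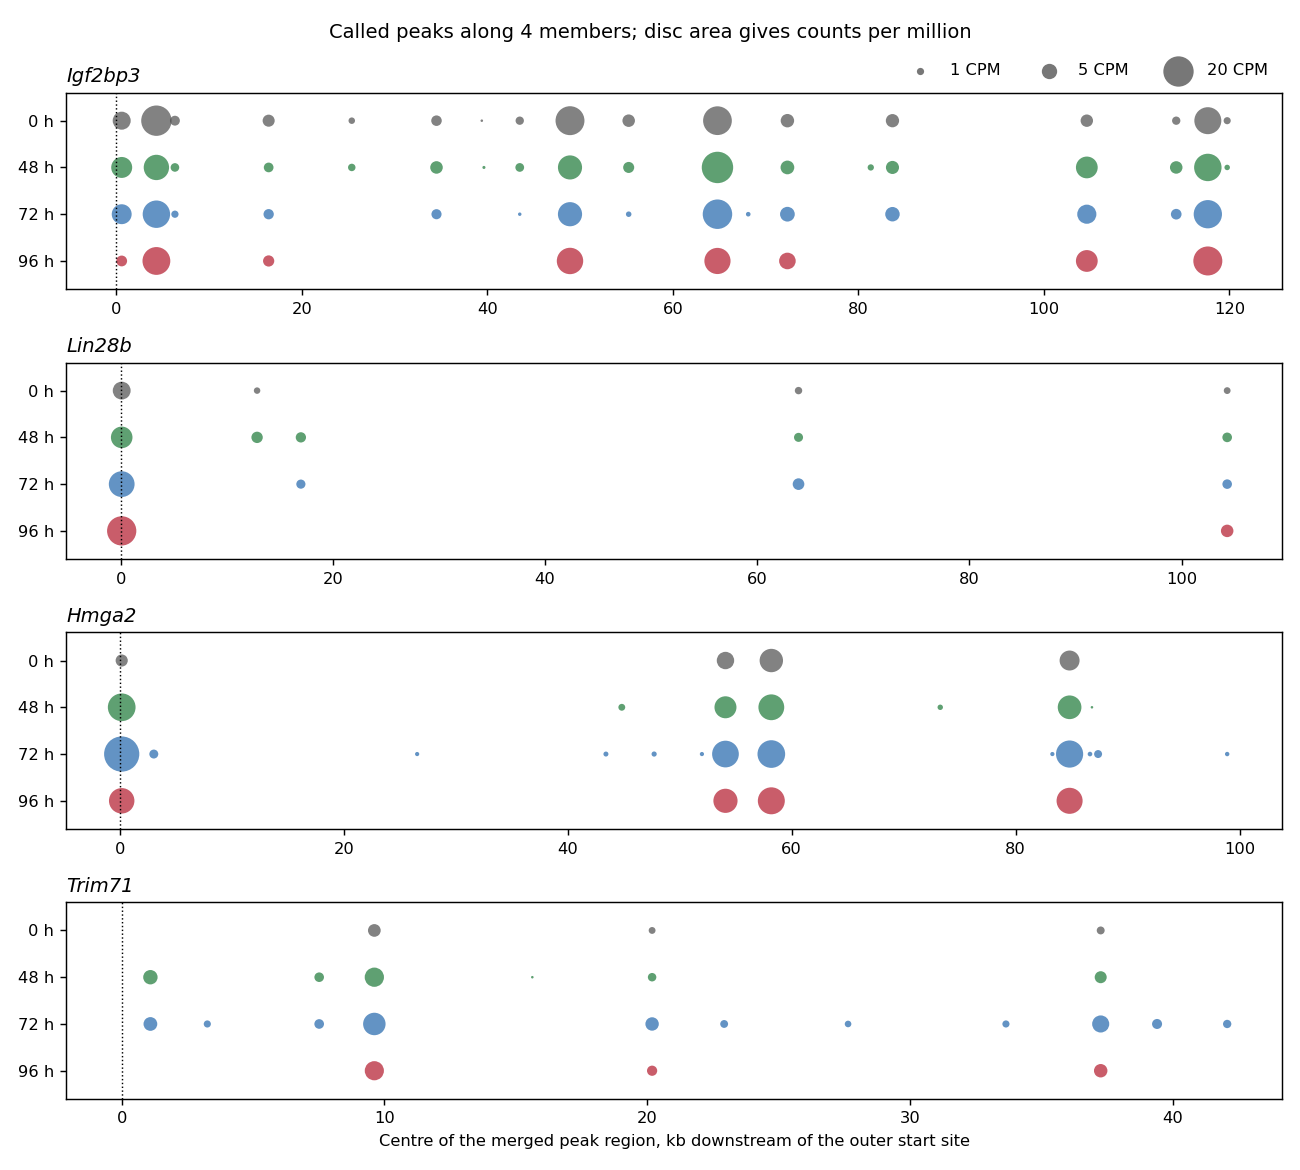
Called peaks along Igf2bp3, Lin28b, Hmga2 and Trim71, by distance of the merged region's centre from the outer start site in kb (horizontal axis) and by library (rows). Disc area gives CPM, and at the dotted start site of Hmga2 the discs stand for 3.09, 16.7, 27.0 and 14.1 CPM while Trim71 has none at 0 or 96 h.

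A called promoter peak, within 1000 bp of any annotated start site, was present for 6 of the 8 genes at 0 h, 8 at 48 h, 8 at 72 h and 5 at 96 h. Over all protein-coding genes the shares were 69.1%, 73.2%, 73.6% and 65.4%. Igf2bp2, Igf2bp3, Lin28b, Hmga1 and Hmga2 had one in every library. Igf2bp1 had one at 0, 48 and 72 h, and Trim71 and Lin28a at 48 and 72 h. Lin28a had one at its outer start site at 72 h alone. Both genes without a promoter peak at 0 h had one at 48 and at 72 h, where 14.3% and 16.4% of such genes did. Of the 8 with one at 72 h, 3 had none at 96 h, against 11.2% of such genes. The pattern of a promoter peak at 48 and 72 h and at neither 0 nor 96 h was shown by 2 of the 8 and by 2.92% of all protein-coding genes. The library of 96 h had the fewest counts and the fewest peaks, and the part of this in the missing promoter peaks was not tested.

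Counts in promoter peaks alone were at least 2-fold above 0 h for 4 of the 8 genes at 48 h (background 10.0% of 15323 genes), 4 at 72 h (13.2%) and 2 at 96 h (7.55%). They were at least 2-fold lower for 1 at 48 h (2.64%), 0 at 72 h (7.82%) and 1 at 96 h (12.7%). The 4 counted at 48 h were Hmga2, Igf2bp3, Lin28a and Trim71, and the 4 at 72 h were Hmga2, Lin28a, Lin28b and Trim71. Trim71 and Lin28a had no promoter peak at 0 h and so no measured level to compare with. The 1 counted lower at 96 h was Igf2bp1, which had no promoter peak there. The count of Igf2bp3 at 48 h rests on which peaks lay near a start site, since over the same regions in each library its log2 ratio was 0.83, below 2-fold. Over the same region Hmga2 had 2.26, 2.94 and 2.02, at least 2-fold at every time.

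**Figure D3:**
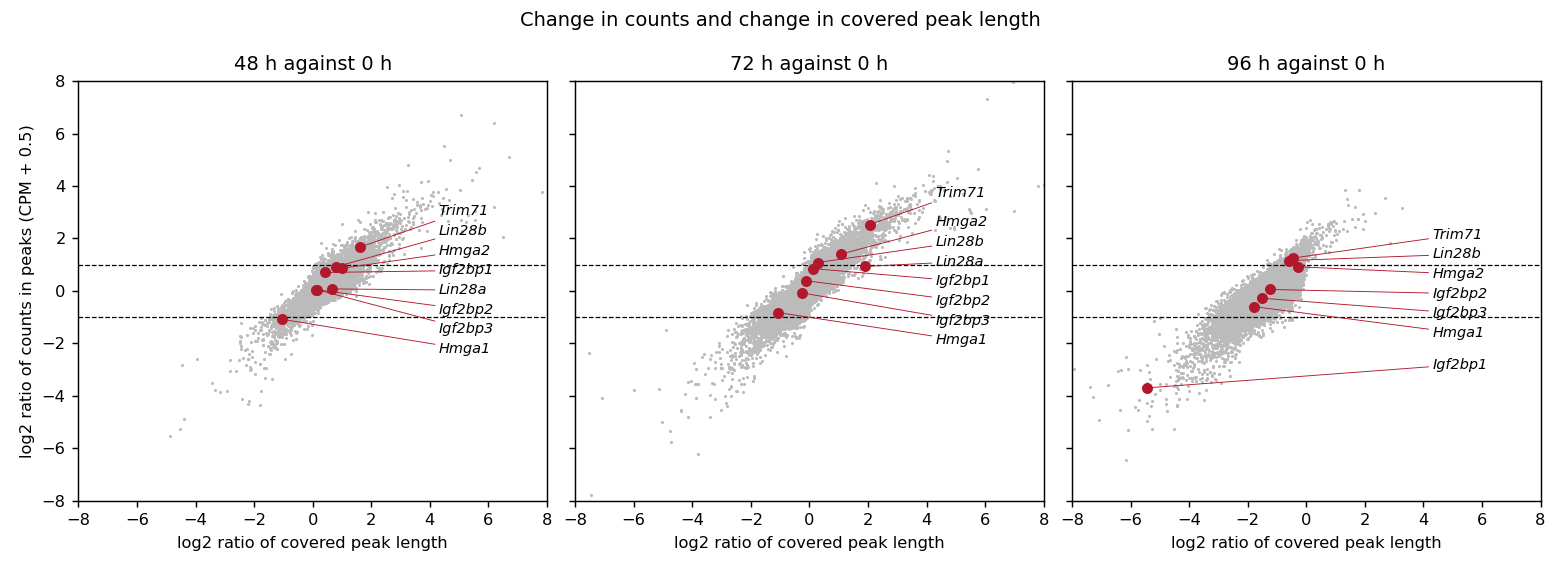
The log2 ratio to 0 h of counts in peaks (vertical axis, CPM + 0.5) against the log2 ratio of covered peak length (horizontal axis) for all genes tested with a peak in both libraries (grey) and the 8 genes (red), with 2-fold marked by dashed lines. A few grey genes fall outside the axes, Lin28a has no peak at 96 h, and the 8 genes lie within the band of all genes, with Trim71 highest at each time.

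The ratio of counts followed the ratio of peak lengths across genes, which are not independent replicates and share their libraries, with correlations of 0.88, 0.91 and 0.85 at 48, 72 and 96 h. Of the 8 genes, Igf2bp1 at 72 h had a length ratio of 0.12 beside a count ratio of 0.85, and Lin28b one of 0.28 beside 1.08. For Lin28a the length ratio of 1.90 was larger than the count ratio of 0.93. Hmga2 had 1.06 beside 1.40, and Trim71 had 2.05 beside 2.53. At 96 h the median length ratio over all genes was -1.09 beside a median count ratio of 0.06. Length and counts likewise had opposite signs for Igf2bp2, with -1.24 beside 0.06, for Lin28b, with -0.59 beside 1.16, for Hmga2, with -0.29 beside 0.92, and for Trim71, with -0.44 beside 1.25.

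Of the intronic regions with a peak in all 4 libraries, 3 are printed, each first or second in its gene by counts at 0 h, each as the central 300 bases of the merged region on the minus strand of GRCm38.p6. They are Trim71 at chr9:114554606-114554905, Hmga2 at chr10:120418133-120418432 and Igf2bp3 at chr6:49165905-49166204. Capitals mark the AP-1 motif TGANTCA, searched on both strands.
Trim71 intron: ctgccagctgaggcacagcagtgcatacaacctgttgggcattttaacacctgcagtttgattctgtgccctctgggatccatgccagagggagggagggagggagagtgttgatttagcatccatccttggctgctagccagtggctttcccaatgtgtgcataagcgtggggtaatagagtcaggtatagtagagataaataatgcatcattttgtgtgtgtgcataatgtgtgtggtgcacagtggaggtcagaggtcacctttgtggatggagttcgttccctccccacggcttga
Hmga2 intron: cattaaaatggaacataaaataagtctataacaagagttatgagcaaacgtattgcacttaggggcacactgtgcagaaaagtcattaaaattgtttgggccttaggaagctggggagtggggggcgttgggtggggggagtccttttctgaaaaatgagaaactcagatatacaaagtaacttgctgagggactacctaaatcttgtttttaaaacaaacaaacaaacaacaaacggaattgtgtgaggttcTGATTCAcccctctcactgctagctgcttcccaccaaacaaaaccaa
Igf2bp3 intron: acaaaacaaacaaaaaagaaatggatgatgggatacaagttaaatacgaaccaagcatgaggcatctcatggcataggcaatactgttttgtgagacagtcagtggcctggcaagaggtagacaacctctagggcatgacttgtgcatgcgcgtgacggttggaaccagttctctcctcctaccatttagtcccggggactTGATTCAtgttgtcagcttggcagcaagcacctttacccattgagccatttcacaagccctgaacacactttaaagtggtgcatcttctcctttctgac

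The 8 genes had 20 intronic regions with a peak in every library. The AP-1 motif was in the central 300 bases of 3 of them, beside 9.15% of 64118 regions with a peak in every library. The HNF4 motif AAAGTCCA was in 1, beside 2.42% of regions. The FOX motif TGTTTAC (5.46% of regions), the HNF1 motif GTTAATNA (3.44%) and the C/EBP motif TTGCGCAA (0.133%) were in 0. No motif was thus common among them.

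Shares of nuclei were compared at equal depth. When each nucleus was thinned to 1000 counts, a count in a Trim71 peak was found in 0.453% of nuclei (exact 95% binomial interval 0.268 to 0.714), 1.72% (1.34 to 2.18), 3.03% (2.54 to 3.59) and 0.931% (0.629 to 1.33) at 0, 48, 72 and 96 h, in the order of its levels. Unthinned, the shares were 9.33%, 13.5%, 10.0% and 3.54%, at median depths of 26005, 11629, 4841 and 3681.5 counts. For Hmga2 the thinned shares were 2.87%, 5.396%, 6.70% and 4.84%, and for Lin28b 0.905%, 1.90%, 1.62% and 1.33%. The Lin28b share was thus highest at 48 h, whereas its level in CPM was highest at 96 h. At 96 h its interval, 0.967 to 1.792, overlapped that of 0 h, 0.635 to 1.251. The Lin28b intervals of 48 and 72 h lay above that of 0 h, and all those after PHx overlapped each other. Hmga1 had 4.63% at 0 h and 2.42%, 2.42% and 2.45% later. Igf2bp3 was found in 8.65%, 9.56%, 8.11% and 6.79% of nuclei, Igf2bp2 in 4.90%, 5.04%, 5.43% and 4.19%, and Igf2bp1 in 0.553%, 1.47%, 1.55% and 0 of 3224 nuclei. That 0 rests on a single peak of 69 bp, and allows a share of up to 0.093% by a floor of 3 counts and up to 0.114% by the exact interval. Lin28a was found in 0.302%, 0.385% and 0.493% of nuclei at 0, 48 and 72 h. Nuclei are not replicates, and these intervals cover counting error only.

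**Figure D4:**
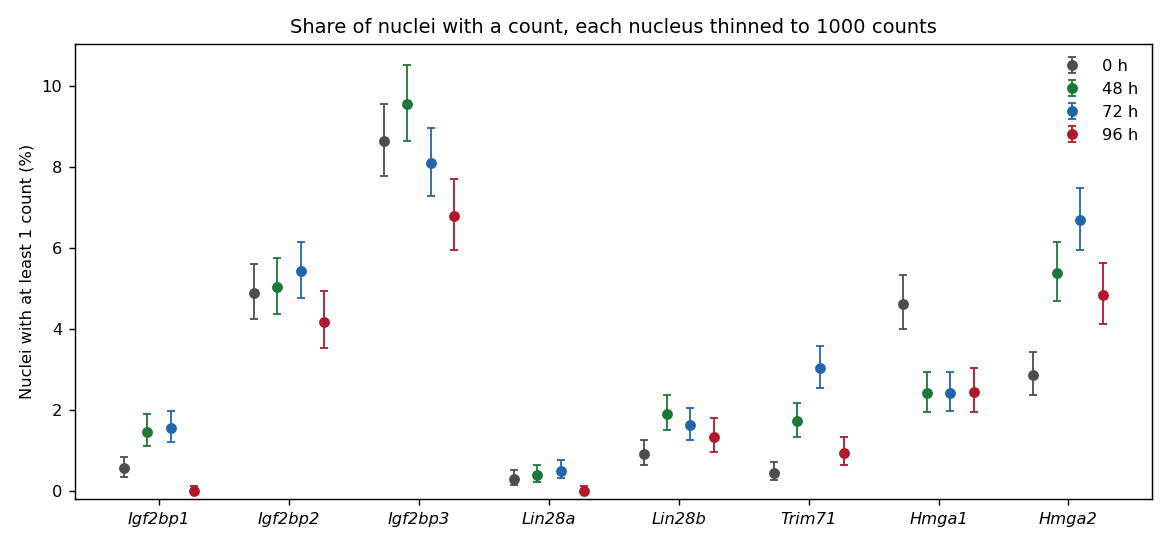
Percent of nuclei with at least 1 count in the peaks of each gene (vertical axis) after thinning each nucleus to 1000 counts, by library (colours), with exact 95% binomial intervals. Trim71 has 0.453% at 0 h and 3.03% at 72 h, and Hmga1 has 4.63% at 0 h and between 2.42% and 2.45% later.

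The levels were also read within hepatocyte-like nuclei, of which there were 2513, 3639, 3933 and 3130, called from clusters built without the regions of the 8 genes. Different clusters held most of them at each time point. Trim71 was at 5.48, 18.8, 34.4 and 13.98 CPM in them, Hmga2 at 30.1, 55.3, 80.2 and 57.6, and Lin28b at 9.46, 18.2, 21.0 and 22.1. These levels lay near those of all nuclei. Nuclei with low hepatocyte markers held at most 2.29% of the counts of a library, so leaving them out could hardly change a level. The restriction is thus no test of other cells. At 0 h, 1168 nuclei of a shallow cluster that stayed unnamed were left out as well. Nuclei with low hepatocyte markers formed 2 clusters with median depths 0.22 and 0.365 of that of their library, and held 1.18%, 1.21%, 2.29% and 0.762% of the counts. Igf2bp3 was lower in them than in hepatocyte-like nuclei in 4 of 4 libraries, at 58.9 against 105.2 CPM at 0 h, 66.4 against 108.5 at 48 h, 45.9 against 100.6 at 72 h and 52.7 against 86.6 at 96 h. The low values rest on 95, 50, 26 and 6 counts, and the interval at 96 h, 10.9 to 154.1, holds the hepatocyte-like value. With nuclei of at least 3000 counts only 3 libraries gave a difference, and at 72 h the low class then had 0 counts. An exact two-sided sign-flip permutation test over the 4 libraries gave p = 0.13, the smallest value it can give. Hmga1 was higher in them in 3 of 4 libraries, at 73.7 (56.2 to 95.02) against 50.8 CPM at 0 h and 57.1 (35.6 to 86.9) against 23.2 at 48 h, with overlapping intervals later. The median log2 difference between the classes over all genes was 0.35, 0.25, 0.16 and 0.0 at 0, 48, 72 and 96 h. For Trim71, Hmga2 and Lin28b the order of the classes differed between libraries.

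Markers of some other liver cells also had higher levels after PHx. The summed level of 8 stellate markers was 84.6, 133.9, 181.9 and 138.5 CPM, with 4 of them at least 2-fold higher at 48 h and 4 at 72 h (8.22% and 13.7% of all genes), among them Hand2, which had no peak at 0 h. That of 8 myeloid markers was 67.2, 131.7, 142.8 and 95.5 CPM, of which Csf1r, a macrophage receptor, was the 1 gene with a peak at 0 h that was at least 2-fold higher at 48 or 72 h, at 21.2, 58.4, 72.4 and 38.1 CPM. Of the Kupffer markers, Clec4f had 7.16 and 6.88 CPM at 48 and 72 h and no peak at 0 or 96 h, Marco had a peak at 72 h alone, and Cd5l and Vsig4 had none in any library. Of these 8, 6, 3, 2 and 6 had no peak at 0, 48, 72 and 96 h. The 10 endothelial markers summed to 367.8, 392.4, 471.8 and 226.5 CPM, with 4 that had a peak at 0 h (Kdr, Tek, Flt4 and Bmp2) at least 2-fold higher at 72 h and none of those at 48 h, and the lowest sum at 96 h. Cdh5 had no peak at 0 h, and 3.48 and 13.7 CPM at 48 and 72 h. The 7 cholangiocyte markers summed to 157.3, 127.7, 140.3 and 143.3 CPM, highest at 0 h. The 8 lymphocyte markers summed to 4.88, 52.8, 7.81 and 5.89 CPM, of which Cd79a alone made up 44.5 CPM at 48 h and had no peak in the other libraries. The part of other cells in the levels of the 8 genes was not tested.

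The partners of these genes in the circuit were read from lists. Among 12 genes of let-7 processing, which include Drosha and Dicer1, the median log2 ratio was 0.09, 0.01 and 0.19, and all 12 had a promoter peak in every library. Msi1, an RNA-binding partner of LIN28, had the highest ratio of the list at 48 h, with 0.83, and 1.72 at 72 h, where it was the 1 gene of the list at least 2-fold higher (13.7% of all genes). Among 13 writers, erasers and readers of m6A, the median was -0.15, -0.23 and 0.08, no gene was 2-fold away at any time and all had a promoter peak in every library. Mettl14, a subunit of the m6A writer, had 0.60 at 48 h and Alkbh5, an eraser, had -0.60.

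Among 14 other targets of let-7 the median log2 ratio was -0.05, 0.03 and 0.36, with 0 genes at least 2-fold away at 48 h, and all had a promoter peak in every library. Igf1r, a growth factor receptor, had 0.87 and Ccnd2, a cyclin, had 0.69 at 48 h, and Ccnd2 was the 1 gene at least 2-fold higher at 72 h, with 1.12 (13.7% of all genes). Insr, the insulin receptor, was the 1 gene at least 2-fold lower at 72 and at 96 h (5.95% and 11.5% of all genes), with -1.14 and -1.23, over 95071, 71771, 32994 and 13762 bp of peaks at 0, 48, 72 and 96 h. Among 12 clients and partners of the IGF2BP proteins the median was -0.09, 0.10 and -0.41, with 1, 2 and 0 genes at least 2-fold higher (8.22%, 13.7% and 6.12% of all genes) and 0, 0 and 3 lower (1.89%, 5.95% and 11.5%), the last being Cd44, Igf2 and H19, which had no peak at 96 h. Cd44, a cell surface receptor, had 1.19, 3.84 and 15.0 CPM at 0, 48 and 72 h and no peak at 96 h. Igf2, the fetal growth factor whose messenger gave the family its name, had 14.9, 27.4 and 34.1 CPM and likewise no peak at 96 h.

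Other fetal liver and oncofetal genes had the highest medians of the pathway lists. Of 14 genes, which include Igf2, H19 and Mycn from the lists above, 4 were at least 2-fold higher at 48 h, 7 at 72 h and 4 at 96 h, where the shares of all genes were 8.22%, 13.7% and 6.12%. Sox11, counted at 48 and 72 h, had no peak at 0 h, and Epcam is also a cholangiocyte marker. At 96 h, 3 were lower (background 11.5%), of which Igf2 and H19 had no peak there and Afp had 7.50 CPM. The median log2 ratio was 0.61, 0.94 and 0.55, beside 1.06, 1.55 and 0.66 for the 7 stellate markers past the filter. Dlk1, a marker of hepatoblasts, had 0.037 CPM in a peak of 24 bp at 0 h and 4.403, 3.88 and 1.41 CPM later. Sox11, a developmental transcription factor, had 2.0, 2.99 and 0.201 CPM at 48, 72 and 96 h. Peg3, an imprinted gene, had the lowest ratio at 48 h, -0.65. Afp, the classic fetal liver protein, had 17.0, 19.03, 15.2 and 7.50 CPM, so it did not share the course of Trim71 or Hmga2.

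Among 15466 genes with at least 50 counts in every library, Tmem74b and Fgf23 lay nearest to Trim71 by the 3 log2 ratios, with 1.72, 2.41 and 1.23, and with 1.73, 2.40 and 1.28. Lin28b was nearest to Ica1 and to Sox17, an endoderm factor, which had 0.89, 1.11 and 1.22. Tlk1 was nearest to Igf2bp3, Igsf1 to Igf2bp2, and 9930021J03Rik to Hmga1. Igf2bp1 and Lin28a had too few counts at 96 h for this search. The measure is the distance over 3 ratios that share 1 library, and it says nothing of shared control.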

How the data were processed

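scATAC-Seq was done on hepatocyte nuclei in 4 libraries, 1 per time point. The deposited matrices hold whole counts of cut sites per peak and barcode, which the authors made with Cell Ranger ATAC, version 1.1.0 per the file headers, with mm10 named in the submitters' processing notes. Both ends of a fragment count, so intervals were computed on counts divided by 2. Peaks carry no score, and the authors called them per library. Peak positions are in the deposited lists.

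Barcodes with at least 1000 counts were summed. A gene's level is the whole count of every peak that touches its GENCODE vM21 body plus 2000 bp upstream, per 1000000 counts in all peaks (CPM). Log2 ratios used a pseudocount of 0.5 CPM over genes with a mean of at least 1 CPM. With 1 library per group no test between times was run, and called means at least 2-fold. Clusters used TF-IDF, 30 components without the first, 30 neighbours and Leiden resolution 0.5, and a cluster with mean hepatocyte markers 1 or more below the cluster mean (log2) was called hepatocyte-low. 1 shallow cluster, with 1168 nuclei of 0 h, stayed unnamed. Doublets were not called, and in an alternative the 5% of barcodes with the most counts were left out.

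The members and lists were chosen with earlier results of these data known. All members are named. Of each list, the genes with the largest rise and fall at 48 h may be named, and the genes nearest to a member by ratio are named, with exceptions stated; the search for Hmga2 is not reported here. Afp, Ccnd2 at 72 h and the let-7 loci were named after their values were seen. Python 3.11.15, scipy 1.17.1 and scikit-learn 1.9.0 were used, and the ratio step was tested on simulated data. Alternatives were other barcode minimums, windows, pseudocounts, scalings, peak lengths and fold limits.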

Additional observations from a re-analysis of the deposited data

How the results depend on the processing

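No call at 48 or 72 h held per kb of peak, a scale on which few of all genes were called. The shares were 0.108% higher and 1.21% lower at 48 h, and 1.42% and 0.41% at 72 h. The 0 calls per kb are thus no result about the 8 genes. No share of all genes is given for the 1.5-fold limit. At 48 h the number of genes at least 2-fold higher (1) was 0 per kb, 0 in regions of near-equal length in both libraries, 2 for the gene body without the upstream 2 kb, 4 for promoter peaks alone and 4 at a 1.5-fold limit. Lin28a in the gene body, and Lin28a and Trim71 at promoters, are counted there against no peak at 0 h, which is no measured level. The number lower (1) was 0 with peaks weighted by their share in the window, per kb, with binarised counts and in regions of near-equal length. The counts in regions of near-equal length are void as checks of calls except for Lin28b at 72 h. It kept its call there, where 2.25% of all genes with such regions were at least 2-fold higher. Lin28b was also called at 96 h, but so were 58.3% of all genes with such regions, so that call checks nothing. Only 5, 4 and 2 genes had such a region at 48, 72 and 96 h, and no other gene called at that time was among them. At 72 h the number higher (3) was 0 per kb, 1 in regions of near-equal length and 5 at 1.5-fold, and the number lower (0) was 1 at 1.5-fold. At 96 h the number higher (2) was 7 per kb, 0 with binarised counts and 1 in regions of near-equal length, and the number lower (2) was 0 per kb and in regions of near-equal length, and 1 for the gene body, for promoter peaks and for genes with a peak in both libraries. Per kb, Igf2bp1 at 96 h was reversed, at 1.76 against -3.70, and values under 2-fold that changed sign were those of Hmga2 at 48 h (-0.14), Lin28a at 48 and 72 h (-0.59 and -0.97), Hmga1 at 72 and 96 h (0.26 and 1.2), Igf2bp2 at 48 h (-0.05) and Igf2bp3 at 48, 72 and 96 h (-0.10, 0.18 and 1.22). Of the values of single genes, 310 moved by less than their counting interval or, for the classes, by less than 1 SD over libraries, and 74, those changes of sign under 2-fold included, by more. Promoter counts stayed within 1.5 times under every peak rule tried. No region of the 8 genes had near-equal length in all 4 libraries, so that alternative gave no value. Regions of near-equal length in 2 libraries, genes with a peak in both, barcodes found in 1 library and the same promoter regions in each library were alternatives chosen after the data were seen. No paired analysis was possible because each time point has 1 library. The median ratio per kb over all genes was 1.26 at 96 h, so 7 genes called there is no result about them.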
